A study of Mus musculus with 4 samples.

Results

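The Notch receptors, ligands and targets described here are 10 genes chosen by name among the 23450 listed in each library, and all 10 were found. They are the receptors Notch1, Notch2, Notch3 and Notch4, the ligands Jag1, Jag2 and Dll1, the DNA-binding partner Rbpj, and the target genes Hes1 and Hey1. RNA was sequenced from mouse bone marrow cells sorted as hematopoietic stem cells (HSCs), 2000 cells per library, with 2 libraries per group. The long-term group (LT-HSC) was CD48-, CD150+, CD34- and CD9high. The short-term group (ST-HSC) was CD48-, CD150+ and CD9low, with no CD34 gate stated. CD9 is a tetraspanin, a membrane protein, and the series title concerns its use to isolate HSCs. Strain, sex and age of the mice were not given in the sources used here, nor whether libraries came from different mice. The tests thus reflect the scatter among these 4 libraries alone, part or all of which may be technical.

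In Notch signalling, a ligand on one cell (Jagged or Delta-like) binds a receptor on its neighbour. The receptor is then cut by an ADAM protease and by gamma-secretase, and its freed intracellular part joins the DNA-binding protein RBPJ and a Mastermind coactivator to switch on targets such as Hes1 and Hey1. In blood formation, Notch1 is needed for the emergence of HSCs in the embryo and for the T cell fate, Notch2 for marginal zone B cells, and bone marrow endothelial and stromal cells are known sources of Jag1 and the Delta-like ligands.

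Of the 10 members, 9 had a read in at least 1 library and 5 reached 1 CPM in at least 2 libraries, the filter for the test (CPM, the reads of a gene per 1000000 reads of its library). These were Notch1, Notch2, Jag2, Rbpj and Hes1. By limma on log2(CPM + 1), 0 of the 5 passed an adjusted p of 0.05 in either direction, against 0% of all 12569 genes tested; limma-voom on the recovered reads also called 0 genes. At an unadjusted p under 0.05 there were also 0 members, against 2.87% of all genes higher and 3.60% lower in LT-HSC. Only 2 tested members had groups that did not overlap: Jag2, above both ST-HSC libraries (16.2% of all genes), and Rbpj, below both (17.5% of all genes). Jag2 passed the filter through the LT-HSC libraries alone, so its place among the tested genes is not independent of its direction. The 4 members with reads that failed the filter (Notch4, Jag1, Dll1 and Hey1) are given by their values; fitted by limma with no filter, they had adjusted p-values of 0.841 to 0.884. An exact permutation test of 2 libraries against 2 cannot go below p = 0.333 (2-sided) for any gene. Bulk RNA cannot tell fewer cells of a type apart from less RNA per cell.

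The libraries held 13062848 to 16142666 recovered reads, so a floor of 3 reads equals 0.186 to 0.229 CPM. LT-HSC 1 stood apart in its breadth: 779 genes (3.32% of those listed) had at least 1 CPM there and no read elsewhere, against 0.797% to 1.07% in each of the other libraries. The HSC markers Procr, Slamf1, Mecom, Hlf, Kit and Ly6a were read in every library. Cd3e and Cd3d, which define T cells, and Pax5, which defines B cells, had no read in any library.

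**Figure D1:**
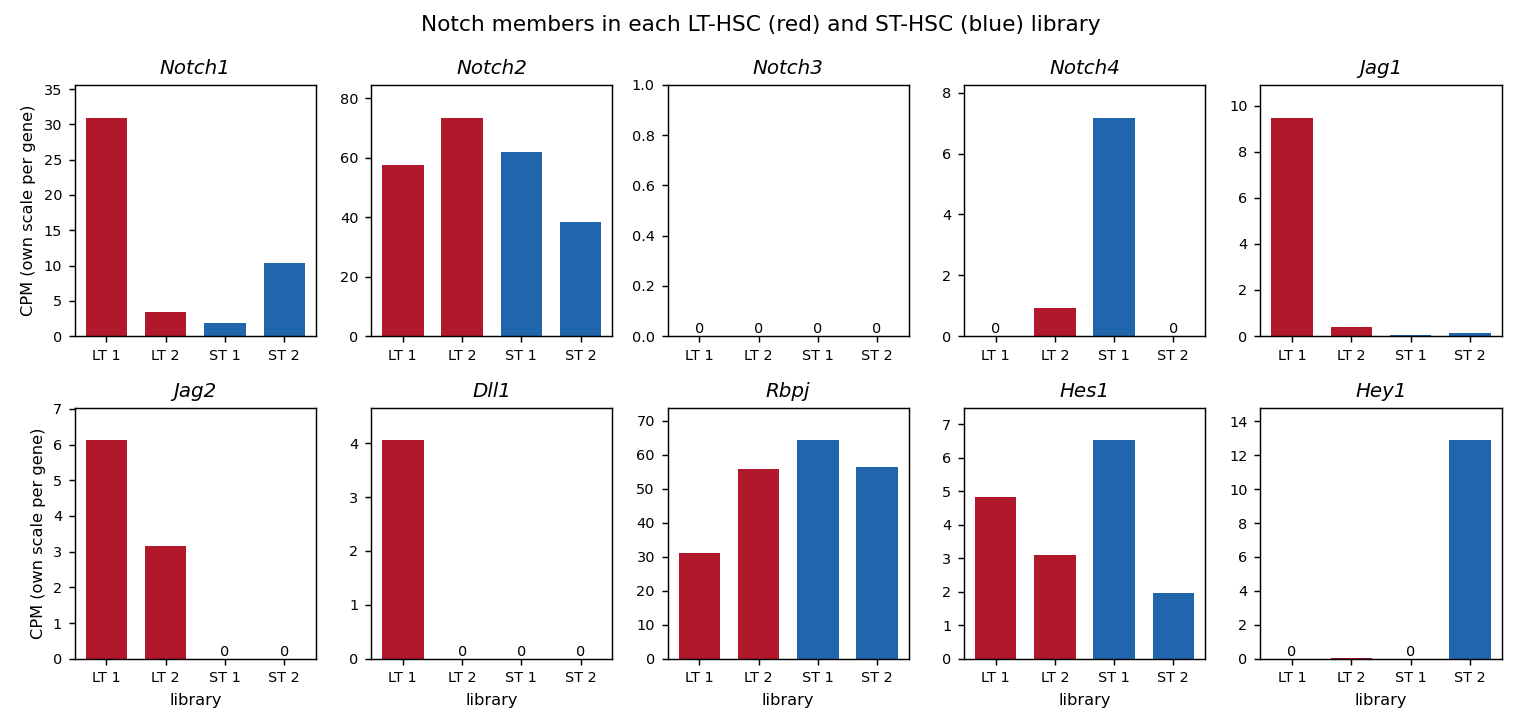
CPM of each of the 10 members (vertical axis, linear from 0, own scale per gene) in the libraries LT-HSC 1 and 2 (red) and ST-HSC 1 and 2 (blue), with a 0 written where a library had no read. Bars are single libraries; Notch2 and Rbpj were read in all 4, while Dll1 was read in LT-HSC 1 alone and Notch3 in none.

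Among the receptors, Notch2 was the one read at a similar level in every library. Notch2 stood at 57.6 and 73.5 CPM in LT-HSC 1 and 2 and at 61.8 and 38.4 CPM in ST-HSC 1 and 2. The groups overlapped, with means of 65.6 ± 11.2 and 50.1 ± 16.5 CPM (SD, n = 2 each). The log2 fold change, positive where LT-HSC is higher, was 0.41 ± 0.47 (SE, limma adjusted p = 0.971).

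Notch1, the receptor of T cell commitment, varied more within each group than between them. It stood at 31.0 and 3.47 CPM in LT-HSC 1 and 2 (405 and 56 reads) and at 1.86 and 10.3 CPM in ST-HSC 1 and 2 (28 and 153 reads). LT-HSC 1 was the highest library, and LT-HSC 2 lay between the ST-HSC libraries. The log2 fold change was 1.07 ± 1.47 (SE, limma adjusted p = 0.991), and without LT-HSC 1 it turned to -0.35. A noncoding gene on the other strand, 0610009E02Rik, overlaps exons of Notch1 in the GENCODE M21 annotation and stood at 108 and 77.6 CPM in LT-HSC 1 and 2 and at 58.7 and 53.8 CPM in ST-HSC 1 and 2. The use of strand in the counting is not given, so reads from the overlap cannot be told apart. Notch3 and Dll1 also overlap annotated genes on the other strand, and Notch2 overlaps one on its own strand, which leaves their values uncertain too.

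The tested genes nearest to Notch1 by Euclidean distance of log2(CPM + 1) over the 4 libraries were Trp53rk (distance 0.57), 2900052L18Rik (0.70) and Gfpt2 (0.83). Trp53rk, a kinase gene, stood at 24.5, 2.29, 2.13 and 11.1 CPM in the same order, so LT-HSC 1 was its highest library too. Gfpt2, an enzyme gene of hexosamine synthesis, had 39.2 CPM in LT-HSC 1. With 4 points this likeness is a description only.

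Notch3 and Notch4, receptors known from vascular cells, had few or no reads. Notch3 had no read in any library, which allows at most the floor of 3 reads in each, if its reads were counted. Maml1 and Ctbp2, other genes of the pathway, had none either. With the read counter unknown, a 0 in all libraries may not mean that a gene is silent. Notch4 had 15 reads in LT-HSC 2 (0.928 CPM) and 108 in ST-HSC 1 (7.18 CPM), and none in LT-HSC 1 or ST-HSC 2. Each group thus held 1 library with Notch4 and 1 without, and ST-HSC 1 alone decides the direction.

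Notch receptors can be compared with each other only per length. Divided by the length of all annotated exons (GENCODE M21 on the GRCm38 build, which is not the authors' mm9), Notch2 stood at 6.08 ± 1.04 CPM per kilobase in LT-HSC and 4.65 ± 1.53 in ST-HSC (SD, n = 2 each). Notch1 stood at 1.21 ± 1.37 and 0.428 ± 0.420 CPM per kilobase (SD, n = 2 each). Notch2 was above Notch1 in each of the 4 libraries, with 5.35 against 2.18 CPM per kilobase in LT-HSC 1, the library with the most Notch1. Rbpj, at 3.41 ± 1.36 and 4.73 ± 0.426, followed Notch2 in LT-HSC and was level with it in ST-HSC (SD, n = 2 each). Hes1, at 1.94 ± 0.598 and 2.08 ± 1.58, was below both in every library (SD, n = 2 each). In LT-HSC the order then ran through Notch1, Jag1 (0.845 ± 1.11), Jag2 (0.666 ± 0.301) and Dll1 (0.480 ± 0.679), whose neighbours did not differ beyond their SD, to Notch4 (0.0576 ± 0.0814) and Hey1 (0.00948 ± 0.0134; SD, n = 2 each). In ST-HSC, Hey1 (1.97 ± 2.79) followed Hes1, Notch4 (0.445 ± 0.630) lay beside Notch1, and Jag1 came last with a read at 0.0173 ± 0.00829 (SD, n = 2 each), while Jag2 and Dll1 had none.

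The 3 ligand genes had few reads, and each had its highest value in LT-HSC 1. Jag2, a Jagged ligand, had 80 reads in LT-HSC 1 and 51 in LT-HSC 2 (6.12 and 3.16 CPM) and no read in either ST-HSC library. The groups therefore did not overlap. Against a floor of 3 reads per ST-HSC library, Jag2 was at least 23.1-fold higher in LT-HSC, or at least 15.7-fold without LT-HSC 1 and at least 30.5-fold without LT-HSC 2. The limma log2 fold change, which depends on the 1 CPM added, was 2.44 ± 0.96 (SE, unadjusted p = 0.0513, adjusted p = 0.767), so the difference did not pass over all genes. With either LT-HSC library left out Jag2 failed the filter and had no test.

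Jag1, the Jagged ligand of bone marrow stromal and endothelial cells, had 124 and 6 reads in LT-HSC 1 and 2 (9.48 and 0.371 CPM) against 1 and 2 reads in ST-HSC 1 and 2 (0.0665 and 0.135 CPM). The groups did not overlap, but LT-HSC 1 held nearly all the reads. The ratio of pooled read rates was 44.3 (exact 95% counting interval 14.8 to 218), and without LT-HSC 1 it was 3.70 (0.790 to 22.9), an interval that spans a ratio of 1. Dll1, a Delta-like ligand, had 53 reads in LT-HSC 1 (4.05 CPM) and none in the other 3 libraries, so the value in LT-HSC rests on that library alone. All such intervals and floors are for counting error alone, because reads copied from 1 molecule by PCR are counted separately.

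Dll4, the Delta-like ligand of thymic and vascular niches, was not among the 10 genes but had the same direction. It had 226 and 140 reads in LT-HSC 1 and 2 (17.3 and 8.66 CPM) against 2 and 1 in ST-HSC 1 and 2 (0.133 and 0.0674 CPM). Both LT-HSC libraries were high and both ST-HSC libraries were below the floor of 3 reads. The ratio of pooled read rates was 125 (exact 95% counting interval 42.3 to 607), or 86.3 (28.9 to 424) without LT-HSC 1 and 172 (58.1 to 841) without LT-HSC 2. The limma log2 fold change was 3.59 ± 1.02 (SE, unadjusted p = 0.0161, adjusted p = 0.716). Like Jag2, Dll4 passed the filter through the LT-HSC libraries alone, so its being tested is not independent of its direction. Gm14207, a noncoding gene on the other strand whose exons overlap Dll4 in GENCODE M21, stood at 30.7 and 3.40 CPM in LT-HSC 1 and 2 and had no read in ST-HSC. Reads of Dll4 and Gm14207 cannot be told apart in the overlap, so the value of Dll4 is uncertain.

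The regions before the start of Dll4 and Jag1, of Rbpj and of the glycosyltransferase gene Lfng are shown because they hold letters that the pathway's own factors are known to recognise. RBPJ recognises the core TGGGAA, and the Hes and Hey repressors bind class C sites, searched here as CACGNG. Both were searched on both strands of the 250 bases before each RefSeq start (GRCm38.p6), and capitals mark each match, written 5′ to 3′ on the strand of the gene. Where an annotated UTR touches the window, only stretches of 30 bases are printed.
Dll4, whole window, chr2:119325534-119325783, plus strand: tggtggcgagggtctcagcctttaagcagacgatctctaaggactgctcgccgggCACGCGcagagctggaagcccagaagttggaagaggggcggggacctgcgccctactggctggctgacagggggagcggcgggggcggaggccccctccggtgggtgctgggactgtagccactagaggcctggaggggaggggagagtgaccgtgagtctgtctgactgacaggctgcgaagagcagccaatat
Jag1, first stretch, chr2:137116741-137116770, minus strand: cCGCGTGttgagaagaggtggccagccgga
Jag1, second stretch, chr2:137116674-137116703, minus strand: gagccaggcgggCACGCGtcattgtgttac
Rbpj, first stretch, chr5:53590185-53590214, plus strand: aatgaaaaaggcTGGGAAcccgcggcgagc
Rbpj, second stretch, chr5:53590269-53590298, plus strand: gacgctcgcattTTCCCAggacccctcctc
Lfng, stretch with both motifs, chr5:140607219-140607248, plus strand: gtccgtatccCACGTGGGAAggagagatct
A match describes these letters and is not a bound site. The class C pattern also takes in CACGTG, an E-box that Myc and Max bind, so a match to it may not be a class C site. The Dll4 window held 1 class C site, 195 bases before the start, and the Jag1 window 2, at 249 and 171 bases. Rbpj has 2 RefSeq starts with overlapping windows. The window shown held 2 RBPJ cores, at 149 and 65 bases before its start, and the other window held 1. In Lfng a match to the class C pattern at 112 bases, which reads CACGTG, overlaps an RBPJ core at 108 bases. The rest of its window held an RBPJ core at 135 bases and matches to the class C pattern at 181 and 55 bases. Of 32851 RefSeq windows of this length, 21.6% held an RBPJ core and 23.5% a match to the class C pattern, CACGTG included. A window was given for 8 of the 10 members (10 windows). Of these members 1, Rbpj, held an RBPJ core and 4, Jag1, Notch2, Dll1 and Notch3, a match to the class C pattern.

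Rbpj, the DNA-binding partner of the cleaved receptor, was read in all libraries and was lowest in LT-HSC 1. It stood at 31.2 and 55.8 CPM in LT-HSC 1 and 2 and at 64.2 and 56.5 CPM in ST-HSC 1 and 2. LT-HSC 2 and ST-HSC 2 were nearly level, so the groups were separated by a narrow gap. The log2 fold change was -0.52 ± 0.51 (SE, limma adjusted p = 0.947), and -0.11 without LT-HSC 1. Processed copies of Rbpj (Rbpj-ps1, Rbpj-ps2 and Rbpj-ps3) are annotated in mouse, and how the authors counted shared reads is not given.

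Hes1, a basic helix-loop-helix repressor and a common readout of Notch activity, did not separate the groups. It stood at 4.82 and 3.09 CPM in LT-HSC 1 and 2 and at 6.51 and 1.95 CPM in ST-HSC 1 and 2, with the ST-HSC libraries both the highest and the lowest. The log2 fold change was 0.05 ± 1.09 (SE, limma adjusted p = 1.0), and its sign turned without LT-HSC 1 (-0.20) or without ST-HSC 2 (-0.62).

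Each of the 3 Hey genes, related repressors, was read in essentially 1 library, and in a different one each time. Hey1 had 191 reads in ST-HSC 2 (12.9 CPM), 1 in LT-HSC 2 and none in LT-HSC 1 or ST-HSC 1. Hey2 had 46 reads in LT-HSC 1 (3.52 CPM) and none elsewhere. Heyl had 113 reads in LT-HSC 2 (6.99 CPM) and none elsewhere. None of the 3 therefore gave a difference shared by the libraries of a group.

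Some markers of the niche cells known to express these genes moved with some of the values, and others did not. The 7 stromal and osteoblastic markers summed to 65.0 and 7.18 CPM in LT-HSC 1 and 2 and to 5.45 and 13.3 CPM in ST-HSC 1 and 2. LT-HSC 1, the library with the most Notch1, Jag1 and Dll1, was also the highest here, mainly through the collagen gene Col1a2 and the chemokine gene Cxcl12. Col1a2 had 508 and 111 reads in LT-HSC 1 and 2 (38.8 and 6.87 CPM) against 0 and 1 in ST-HSC 1 and 2. Cxcl12 had 311 and 5 reads in LT-HSC 1 and 2 (23.8 and 0.309 CPM) and none in ST-HSC. Both LT-HSC libraries were thus above the ST-HSC libraries for Col1a2 and Cxcl12, as they were for Jag1, Jag2 and Dll4. Bglap, another of the 7, went the other way, with 71 reads in ST-HSC 1 (4.72 CPM) and none in the other libraries. Most of the sum in ST-HSC 2 was Pdgfrb, a pericyte marker (13.1 CPM there, at most 2.22 CPM elsewhere). Of these 7, Lepr, the defining receptor of marrow stromal cells, had no read in any library, Col1a1 had 2 reads in ST-HSC 2 alone, and Pdgfra had reads in LT-HSC 1 alone, at 0.229 CPM. The 6 endothelial markers summed to 32.7 and 24.0 CPM in LT-HSC and to 44.4 and 38.5 CPM in ST-HSC 1 and 2, with Plvap and Sox17 at 0 in all libraries. The other 4 endothelial markers did not share a pattern. Kdr, a VEGF receptor gene, had 30.3 and 14.9 CPM in the LT-HSC libraries and 10.4 and 8.49 CPM in the ST-HSC libraries. Stab2, a sinusoidal marker, had no read in LT-HSC and stood at 28.3 and 15.4 CPM in ST-HSC 1 and 2. Flt4 was highest in LT-HSC 2 (9.10 CPM), and Cdh5, the gene of VE-cadherin, in ST-HSC 2 (9.84 CPM), the library with Hey1. The part of such cells in the values of the Notch genes was not tested.

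**Figure D2:**
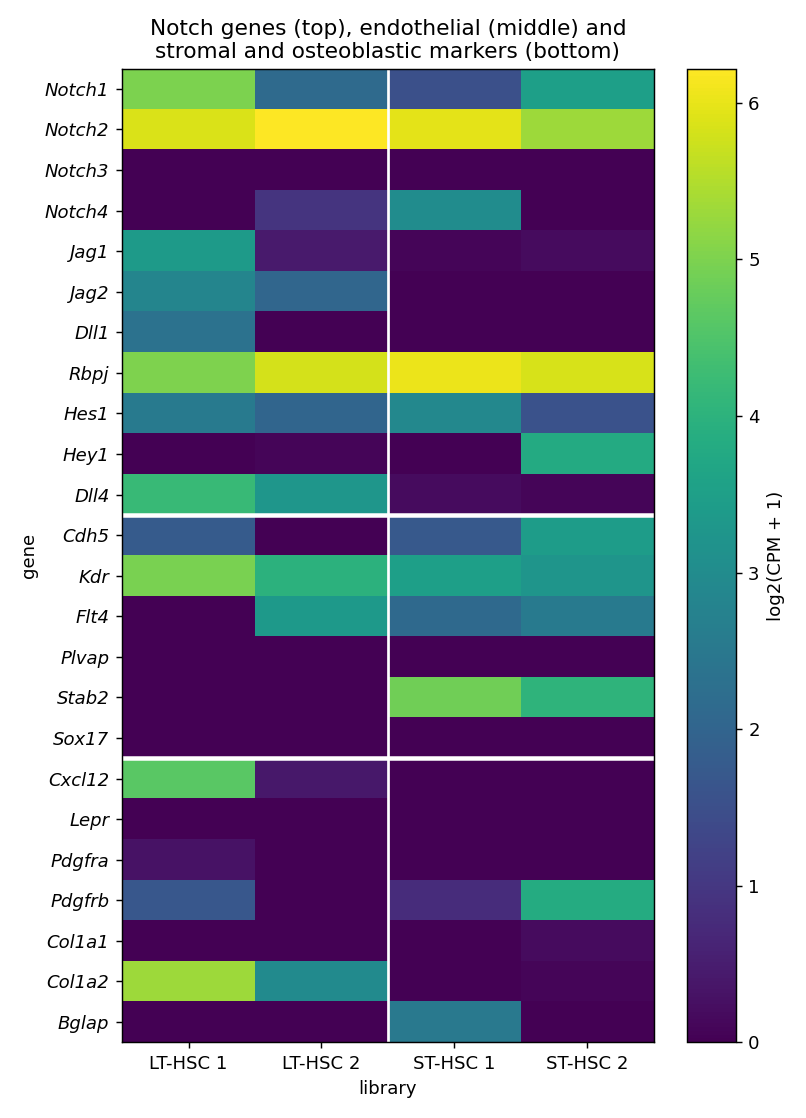
Colour gives log2(CPM + 1) in each library (columns) for the 10 members and Dll4 (top block), 6 endothelial markers (middle) and 7 stromal and osteoblastic markers (bottom). Colours compare libraries within a row, not genes, since CPM are not divided by length; Jag1, Dll1, Cxcl12 and Col1a2 have their highest value in LT-HSC 1.

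The other genes of the pathway were counted by role, from a list of 62 genes of which 58 are in the files analysed here. Of these 58, 6 had no read and 45 were tested. By limma, 0 of the 45 passed the adjusted threshold (0% of all genes), and 1, Dll4, was higher at an unadjusted p under 0.05 (2.87% of all genes), while 0 were lower (3.60%). Since Dll4 entered the test only through the group where it is high, nothing is read from that count. The median log2 fold change of the 45 was -0.11, beside -0.0098 over all 12569 genes. For 4 of them (8.89%, against 16.2% of all genes) LT-HSC was above ST-HSC without overlap, and for 7 (15.6%, against 17.5%) it was below. The shares were not above those of all genes in either direction.

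Of the other ligands, 3 of 5 were tested, and Dll4 and Dlk2 lay above both ST-HSC libraries, as did 16.2% of all genes. Dlk2, a Delta-like homologue without the Notch-activating domain, stood at 20.5 and 24.6 CPM in LT-HSC 1 and 2 and 10.2 and 10.3 CPM in ST-HSC 1 and 2, a log2 fold change of 1.06 ± 0.82 (SE, limma adjusted p = 0.898). Dlk1, its imprinted relative, was read only in LT-HSC 1 (7.41 CPM) and ST-HSC 2 (4.79 CPM). Genes that activate ligands by ubiquitination had 3 of 4 tested. Among them, Neurl1b stood at 23.4 and 10.3 CPM in LT-HSC and 0.665 and 4.92 CPM in ST-HSC 1 and 2 (log2 fold change 2.41 ± 1.21 SE, limma adjusted p = 0.815). Neurl1b could not have passed the filter on the ST-HSC libraries alone, so its being tested is not independent of its direction. Mib1, the main ubiquitin ligase of Notch ligands, stood between 112 and 147 CPM in all libraries.

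All 6 genes of receptor maturation were tested. Lfng, the lunatic fringe glycosyltransferase that alters which ligands a receptor answers and that is itself a known Notch target, had 2 and 8 reads in LT-HSC 1 and 2 against 64 and 56 in ST-HSC 1 and 2. The groups did not overlap, but the log2 fold change of -1.93 ± 0.95 (SE) did not pass (limma adjusted p = 0.812). Lfng passed the filter through the ST-HSC libraries alone. Mfng, manic fringe, was read at 113 to 154 CPM in every library. Poglut1, which adds O-glucose to the receptor, stood at 264 and 308 CPM in LT-HSC and 59.6 and 227 CPM in ST-HSC 1 and 2, with the low value in ST-HSC 1 alone (log2 fold change 1.28 ± 0.65 SE, limma adjusted p = 0.815).

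The genes of receptor cleavage were read in every library. Ncstn, the nicastrin gene of gamma-secretase, stood at 37.9 and 61.8 CPM in LT-HSC 1 and 2 and at 72.0 and 86.4 CPM in ST-HSC 1 and 2 (log2 fold change -0.69 ± 0.45 SE, limma adjusted p = 0.866). Aph1a, which codes for another subunit, stood at 12.0 and 6.75 against 36.8 and 18.4 CPM in the same order (-1.43 ± 0.90 SE, limma adjusted p = 0.860). Both were lower in each LT-HSC library than in either ST-HSC library, as were 17.5% of all genes. The gamma-secretase genes Psen2, Psenen, Aph1b and Aph1c overlapped between the groups, and so did the protease genes Adam10 and Adam17. The close paralogs Aph1b and Aph1c may share reads, which leaves both values uncertain.

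In the nucleus, 0 of the 5 tested coactivator genes separated the groups. Of all genes, LT-HSC was above without overlap for 16.2% and below for 17.5%, so such counts in short lists say little. The Mastermind genes Maml2 and Maml3 were read in all libraries and Maml1 in none, with Maml3 ranging from 8.79 CPM in LT-HSC 1 to 117 CPM in ST-HSC 1. Kat2b, an acetyltransferase gene, was low in LT-HSC 2 alone (10.8 CPM, against 47.6 to 58.8 CPM elsewhere). Of 6 tested corepressor genes, Ncor1 lay below both ST-HSC libraries at 226 and 164 against 243 and 262 CPM (log2 fold change -0.39 ± 0.26 SE, limma adjusted p = 0.869), and Spen, an RBPJ corepressor gene, had 0.70 ± 0.52 (SE, limma adjusted p = 0.892). Of 8 tested genes of trafficking and turnover, Cdk8, a kinase gene of receptor turnover, lay below both ST-HSC libraries (-0.43 ± 0.37 SE, limma adjusted p = 0.920). Itch, a ubiquitin ligase gene, had 0.58 ± 0.42 (SE, limma adjusted p = 0.876).

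Of the other target genes, 11 of 14 were in the files and 5 were tested. Nrarp, a feedback inhibitor induced by Notch, had 31 reads in LT-HSC 1, none in LT-HSC 2, and 136 and 127 in ST-HSC 1 and 2 (2.37, 0, 9.04 and 8.56 CPM). Both LT-HSC libraries lay below both ST-HSC libraries, with a log2 fold change of -2.42 ± 1.12 (SE, limma adjusted p = 0.802). Nrarp could not have passed the filter on the LT-HSC libraries alone, so its being tested is not independent of its direction. Hes6 belongs to the Hes family but is not an established readout of Notch activity. It stood at 92.1 and 17.3 CPM in LT-HSC and 157 and 77.6 CPM in ST-HSC 1 and 2, so the groups overlapped (-1.43 ± 0.89 SE, limma adjusted p = 0.860). Myc, also driven by many other signals, stood between 452 and 596 CPM in all libraries. Targets of Notch in developing T cells were at or near 0: Il2ra had no read and Tcf7 had 19 reads in ST-HSC 1 alone, while Gata3, also expressed in HSCs, stood at 153 CPM in LT-HSC 1 and 38.6 to 45.4 CPM in the other libraries.

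**Figure D3:**
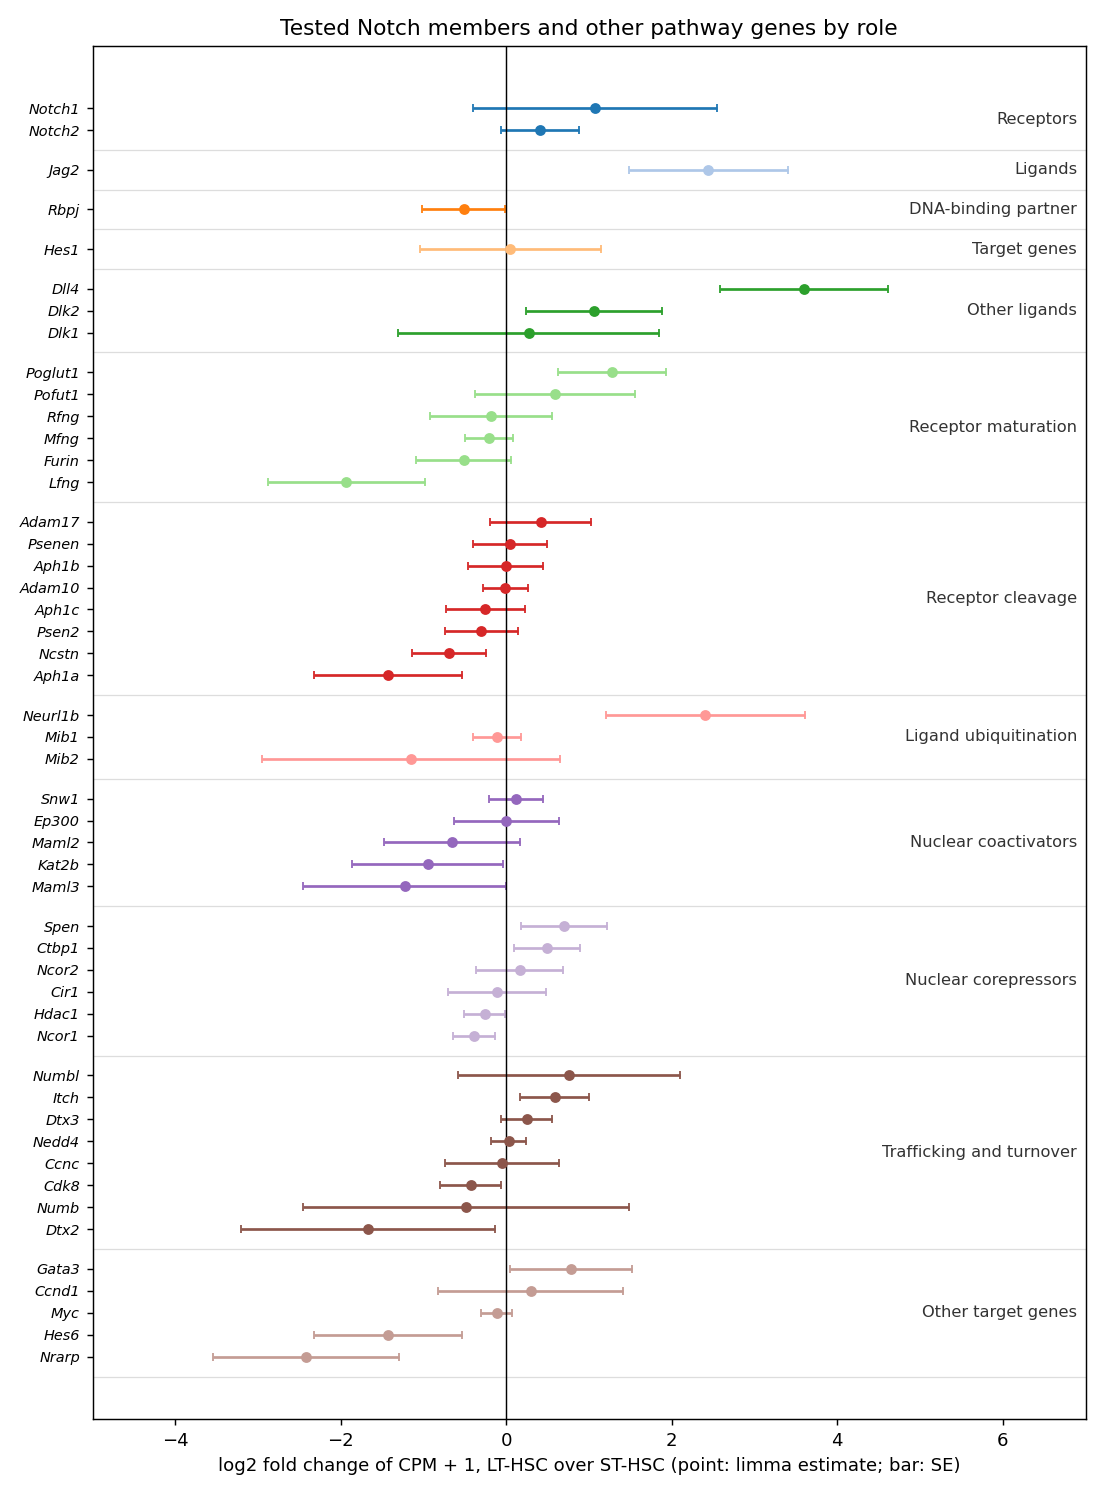
Log2 fold change of CPM + 1 between LT-HSC and ST-HSC (horizontal axis, positive where LT-HSC is higher) for the 5 tested members and other tested pathway genes, grouped by role; points are limma estimates and bars their SE, from 2 libraries per group. Dll4, Jag2 and Neurl1b lie farthest to the right and Nrarp and Lfng farthest to the left, and 0 of the genes shown passed the adjusted threshold.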

How the data were processed

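Per the labels' protocols, cDNA was made with the SMARTer kit from 2000 sorted cells per library and read on Illumina instruments. TopHat and the mm9 build are named in the submitters' processing notes. The read counter, its annotation and its use of strand were not given in the sources used here. The authors deposited log2 values, 1 file per library. Their low steps are whole numbers of reads (100% of 12812 to 13135 values of at most 100 reads per library lay within 0.1 of a whole number), taken here as log2 of reads plus 1, per 1000000 of the library total. If genes without a read had been raised to 1 instead, each read gene would hold 1 read more.

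CPM were computed by undoing that step and were scaled by the total that each file implies. The 12569 genes that reached 1 CPM in 2 or more libraries were tested on log2(CPM + 1). The tool was limma (version 3.58.1, R 4.3.3, statmod 1.5.0) with a mean-variance trend, robust shrinkage and no block. P-values were adjusted by Benjamini-Hochberg over these genes, and 0.05 was the threshold. Low genes have smaller fold changes on this scale than in reads. The code of the fit was run on simulated reads with known changes and a fixed spread. That checks the code and does not measure the power of the test in these data.

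The members and lists were chosen with earlier results of these data known. All members are named, and per role list each gene with an unadjusted p under 0.05, else the 2 with the smallest p. Some genes are not reported here. Other named genes were chosen after their values were seen. For Notch1, the 3 nearest genes are named. Alternatives were other filters, another added value, median-of-ratios factors, the deposited values as they are, limma-voom, a replicate block and leaving out each library. Of 62 other pathway genes, 4 (Fbxw7, Hes5, Hes7 and Ptcra) were not analysed here.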

Additional observations from a re-analysis of the deposited data

How the results depend on the processing

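No member, and no other pathway gene named above, passed the adjusted threshold under any of the 11 alternatives, where the smallest adjusted p among the 20 tested genes named by the rule was 0.526. Over all genes the count at the adjusted threshold was 0 throughout, and the count at an unadjusted p under 0.05 was 814 with all libraries, 586 by limma-voom, 878 with the replicate block, and from a low of 415 (ST-HSC 2 left out) to a high of 1116 (LT-HSC 2 left out). By limma, 1 of the members (Jag2) passed the unadjusted threshold without the filter, with 0.1 CPM added, with median-of-ratios factors and on the deposited values, and 0 with all other settings. Of the other pathway genes, 0 passed it by limma-voom, and between 0 (without ST-HSC 1) and 4 (without LT-HSC 2) with 1 library left out, 3 of them without LT-HSC 1. Their median of -0.11 was -0.0809 without the filter and at 5 CPM, -0.0882 with median-of-ratios factors, -0.0857 by limma-voom, and -0.135 to -0.0586 with 1 library left out.

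With the replicate number as a block, 3 other pathway genes (Dll4, Poglut1 and Hes6) passed the unadjusted threshold in place of 1. The deviations of same-numbered libraries from their group means correlated at 0.0518 across genes, and the labels do not say that a number marks a shared animal or day, so the numbers were not taken to pair the libraries. The block changed no call at the adjusted threshold.

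Of the 20 genes, 15 kept their direction under every alternative that could test them. With 1 library left out, the log2 fold change ranged from -0.35 to 2.49 for Notch1, -0.62 to 0.72 for Hes1, -3.83 to 1.53 for Mib2, -2.12 to 0.22 for Kat2b and -2.87 to 0.41 for Maml3. Where a group was left with 1 library, that library was assumed to vary like the other group. The cause of these changes was not tested. The values of Jag1, Jag2, Dll1, Dll4, Notch4, Hey1 and Lfng rest on few reads, each with fewer in every library than Notch2.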

Other observations

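Some regulators of the pathway differed more between the libraries of a group than between the groups. Numb, which encodes an inhibitor of Notch that is shared unequally between daughter cells, had 32 and 1832 reads in LT-HSC 1 and 2 and 140 and 1106 reads in ST-HSC 1 and 2 (2.45, 113, 9.30 and 74.5 CPM). Mib2, a ubiquitin ligase gene of Notch ligands, stood at 2.91 and 160 CPM in LT-HSC and 40.8 and 72.8 CPM in ST-HSC. Pofut1, which adds the O-fucose that fringe enzymes extend, stood at 53.2 and 187 CPM in LT-HSC and 144 and 30.2 CPM in ST-HSC. These genes were chosen after their values were seen, and none passed the test (limma adjusted p = 1.0 for each).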
